A study of Mus musculus with 6 samples.

Results

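Haemoglobin and blood cell genes were described in whole testes of mice with and without Gipr, the gene of the receptor for the gut hormone GIP. The 9 genes were Hba-a1, Hba-a2, Hbb-b1 and Hbb-b2 (haemoglobin chains), Alas2, Slc4a1 and Car2 (other red cell genes) and S100a8 and S100a9 (neutrophil genes). They were taken as every non-control probe that carries one of these names in the array files, out of 34787 genes and unnamed transcripts on the array. Each had 1 probe, present as 1 spot per array. The 9 genes were selected with measured values of these same 6 arrays in view, their differences between testes and between genotypes. Their values are therefore a description. Their counts in the fit over all genes are given only beside the share of all genes, and support nothing.

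All 6 mice were C57BL/6 and 8 weeks old, and the label of each sample is whole testis, so germ cells, interstitial cells, vessels and the blood inside them were measured together. The Gipr-/- group held 3 mice and the Gipr+/+ group 3 mice, with 1 array per mouse. The labels do not say how the Gipr allele was made or whether vessels were flushed. Values are Agilent processed signal, a background-corrected spot brightness. They are given either on that linear scale or as log2 signal minus the 75th percentile of the array. Folds between arrays and orders of arrays were taken from the log2 values, and can differ from those of the processed signal. A value compares 1 probe between arrays and does not rank different genes. In such bulk RNA, fewer cells of a type and less RNA per cell cannot be told apart.

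Adult haemoglobin is made of α and β chains around haem. Circulating red cells of mammals have lost the nucleus but young ones still carry globin mRNA, so blood left in a dissected organ adds globin signal to its RNA. Alas2 is the erythroid form of the first enzyme of haem synthesis, Slc4a1 is the band 3 anion exchanger of the red cell membrane, and Car2 is carbonic anhydrase II, which is also made in other tissues. S100a8 and S100a9 form calprotectin, an abundant calcium-binding protein of neutrophils.

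The probes of the globin genes are shown first, since their values carry most of the account and globin genes are close copies of each other. The probes of Hba-a1 and Hbb-b2 are given whole, at 60 bases. For Hba-a2, Hbb-b1 and a further β-globin probe named Beta-s in the files (Hbb-bs in RefSeq), 30 bases are given. Capitals mark AATAAA, the polyadenylation signal, which of these probes only that of Hba-a2 holds.
Hba-a1 probe: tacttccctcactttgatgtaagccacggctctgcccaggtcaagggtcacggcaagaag
Hba-a2 probe, bases 26 to 55: tcttggtctttgAATAAAgcctgagtagga
Hbb-b1 probe, bases 1 to 30: ttttctgctattgtctatgcacaaaggtta
Hbb-b2 probe: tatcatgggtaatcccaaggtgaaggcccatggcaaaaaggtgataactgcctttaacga
Hbb-bs probe, bases 1 to 30: tttgcttctgacatagttgtgttgactcac

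None of these 5 probes shared a run of 18 bases with any other probe of the array, on either strand. Probes were compared with probes only, and transcripts were not searched. In the files' mm9 coordinates the probe of Hba-a1 lies on chromosome 11 at 32183955 to 32184014 and that of Hba-a2 at 32197245 to 32197304, with starts 13290 bases apart. The probe of Hbb-b1 lies on chromosome 7 at 110961105 to 110961164, and that of Hbb-bs 15274 bases away at 110976379 to 110976438. No position is given for the probe of Hbb-b2. The accession of the Hbb-b1 probe (NM_008220) is that of Hbb-bt in RefSeq today. C57BL/6 mice carry the β-globin haplotype with Hbb-bs and Hbb-bt, and Hbb-b1 and Hbb-b2 are the names of the genes in another haplotype. Which α-globin or β-globin transcripts bound each of these probes was not tested.

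Promoters are shown, as a description only, for the globin genes that RefSeq's GRCm38.p6 table holds. Whether they bear on the shared pattern of the globin probes across arrays was not tested. Hbb-bt is shown for the accession of the probe named Hbb-b1. Each line is the 100 bases before the annotated start, on the gene's strand. Capitals mark 3 strings known from classical globin promoters, on either strand. They are the CCAAT box, the CACCC box, and TATAA of the TATA box.
Hba-a1, chr11:32283572-32283671, plus strand: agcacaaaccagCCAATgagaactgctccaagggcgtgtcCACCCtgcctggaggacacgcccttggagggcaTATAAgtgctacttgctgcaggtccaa
Hba-a2, chr11:32296392-32296491, plus strand: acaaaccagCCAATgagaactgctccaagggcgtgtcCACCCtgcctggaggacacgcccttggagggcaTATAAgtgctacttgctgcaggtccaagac
Hbb-bt, chr7:103813924-103814023, minus strand: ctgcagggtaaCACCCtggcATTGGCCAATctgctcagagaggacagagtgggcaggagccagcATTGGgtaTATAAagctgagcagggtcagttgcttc
Hbb-bs, chr7:103827929-103828028, minus strand: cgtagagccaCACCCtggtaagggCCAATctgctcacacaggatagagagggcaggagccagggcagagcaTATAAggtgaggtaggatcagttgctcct

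All 4 windows held all 3 strings. Among 32851 promoters in the table, 18.89% held CCAAT in the same window, 27.24% held CACCC, 10.18% held TATAA and 0.47% held all 3. GATAA, also searched for on either strand, was in none of the 4 windows and in 8.55% of those promoters. TATAA began 27 to 30 bases before the start in these windows, at position -27 for Hba-a1, -30 for Hba-a2, -28 for Hbb-bt and -29 for Hbb-bs. The windows of Hba-a1 and Hba-a2 share a run of 97 bases, whereas those of Hbb-bs and Hbb-bt share at most 14 bases in a row. A match to such short strings is a description of the letters. The promoters of Hbb-b1, Hbb-b2, Slc4a1 and Car2 are not shown.

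Both α-globin genes read highest in knockout replicates 1 and 3 and low in knockout replicate 2 and wild-type replicate 1. The processed signal of Hba-a1 was 6608, 2607 and 5409 in the Gipr-/- testes and 2239, 3660 and 3698 in the Gipr+/+ testes. The processed signal of Hba-a2 was 23001, 9263 and 20801 in the Gipr-/- testes and 8501, 12497 and 12303 in the Gipr+/+ testes. For both genes the groups overlapped, since knockout replicate 2 lay below wild-type replicates 2 and 3.

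On the log2 scale Hba-a1 read 2.58 ± 0.64 in the Gipr-/- testes and 2.05 ± 0.40 in the Gipr+/+ testes (SD, n = 3 each), a difference of 0.53 ± 0.35 (SE). Hba-a2 read 4.44 ± 0.65 and 3.86 ± 0.30, a difference of 0.58 ± 0.33 (SE). Either difference was smaller than the SD of the knockout arrays.

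The β-globin probes gave the same picture with a wider range. The processed signal of Hbb-b1 was 4935, 1538 and 5059 in the Gipr-/- testes and 1459, 2228 and 2105 in the Gipr+/+ testes. That of Hbb-b2 was 1309, 471 and 1124 in the Gipr-/- testes and 379, 625 and 582 in the Gipr+/+ testes. Again knockout replicate 2 and wild-type replicate 1 were the 2 lowest arrays for each gene, and the groups overlapped.

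Hbb-b1 read 2.16 ± 0.92 in the Gipr-/- testes and 1.34 ± 0.32 in the Gipr+/+ testes on the log2 scale (SD, n = 3 each), a difference of 0.82 ± 0.45 (SE). Hbb-b2 read 0.22 ± 0.73 and -0.54 ± 0.38, a difference of 0.76 ± 0.38 (SE). The highest array exceeded the lowest 3.34-fold for Hbb-b1 and 3.25-fold for Hbb-b2, against 2.78-fold for Hba-a1 and 2.55-fold for Hba-a2.

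**Figure D1:**
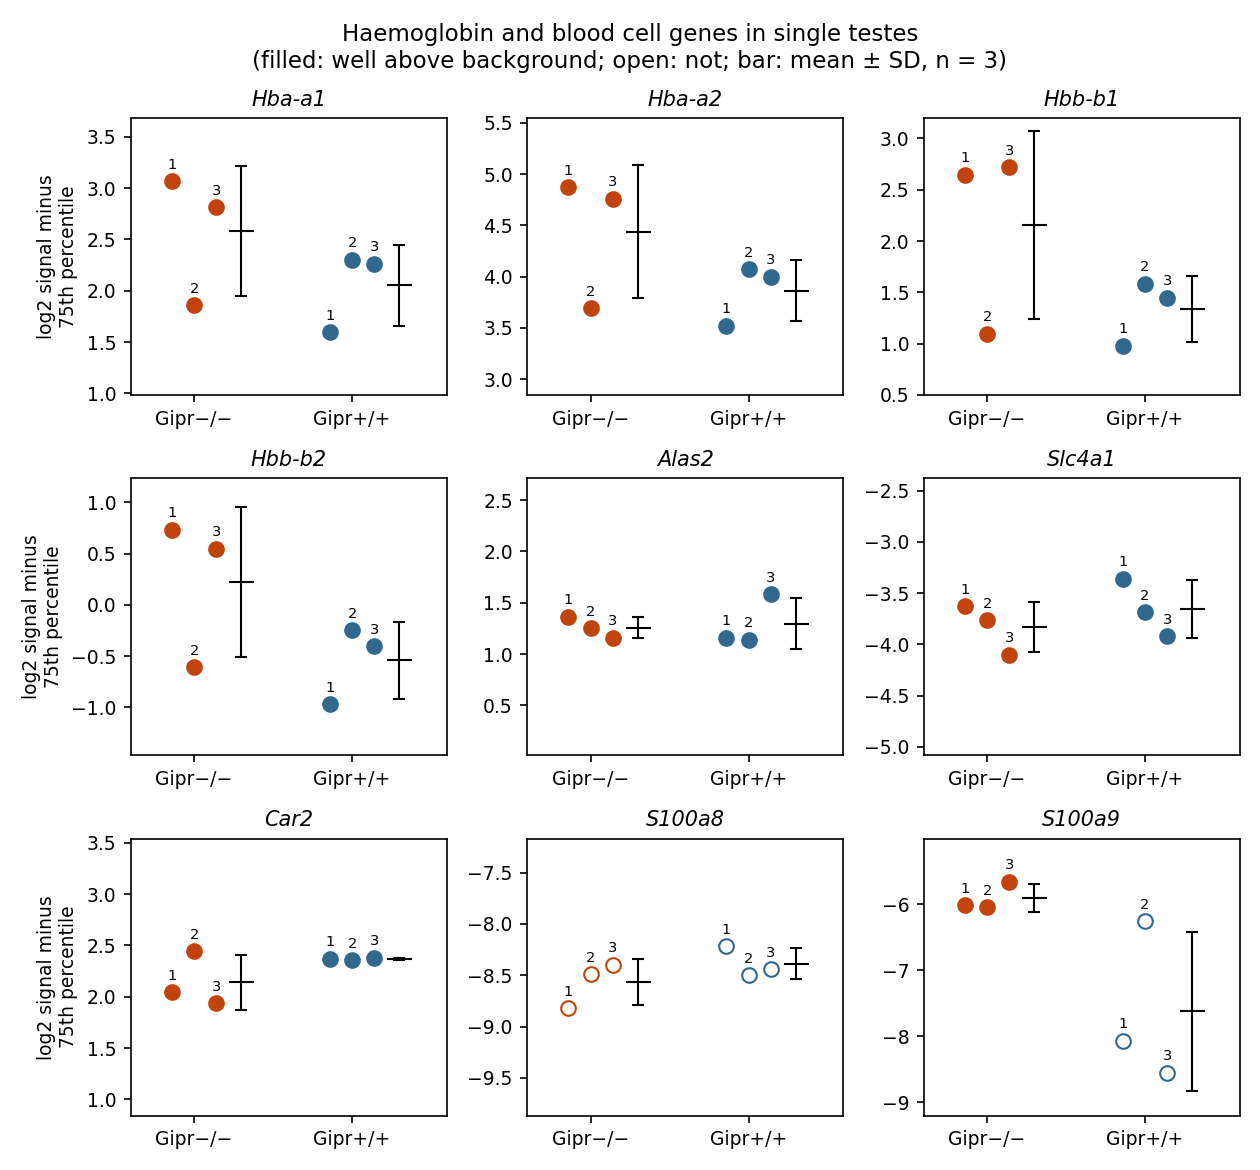
Log2 processed signal minus the 75th percentile of the array (vertical axis) for the 9 genes in 3 Gipr-/- and 3 Gipr+/+ testes. Numbers are replicates, filled points were well above background and open points were not, and bars are mean ± SD (n = 3). Panels span the same log2 range except that of S100a9. The 4 globin genes put knockout replicate 2 beside the wild type, Car2 reads 2.04 and 1.94 in knockout replicates 1 and 3, below 2.36 to 2.44 on the other arrays, and S100a8 is above background on 0 arrays.

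The order of the 6 testes on the log2 scale was nearly the same for all 4 haemoglobin genes. From high to low it was knockout 1, knockout 3, wild type 2, wild type 3, knockout 2 and wild type 1 for Hba-a1, Hba-a2 and Hbb-b2. Only Hbb-b1 put knockout 3 before knockout 1. By processed signal, Hba-a1 had wild type 3 at 3698 just before wild type 2 at 3660. Within this order wild-type replicates 2 and 3 differed by less than 0.16 on the log2 scale for each gene, with deviations of -0.016 and -0.055 for Hba-a1.

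The mean of the 4 genes, each expressed as the deviation from its own mean over the 6 arrays, gives 1 haemoglobin value per testis. It was 0.82, -0.50 and 0.70 in knockout replicates 1 to 3 and -0.73, -0.09 and -0.19 in wild-type replicates 1 to 3. On a given array the 4 genes lay within 0.15 to 0.47 of each other, the widest gap being on knockout replicate 3. The highest and lowest testis thus differed 2.92-fold.

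Within the knockout the haemoglobin value spanned 1.32 log2 units, or 2.50-fold, and within the wild type 0.65, or 1.56-fold. In each group 1 testis set most of that range. Without knockout replicate 2 the knockout range was 0.12, and without wild-type replicate 1 the wild-type range was 0.10. The means of the groups were 0.34 ± 0.73 in the Gipr-/- testes and -0.34 ± 0.35 in the Gipr+/+ testes (SD, n = 3 each), a difference of 0.67 or 1.59-fold. It was 0.43, 1.09 and 0.49 without Gipr-/- replicates 1, 2 and 3 in turn, and 0.47, 0.80 and 0.74 without those of the Gipr+/+ group. The sign held while the size moved with single animals. Slide row cannot be told apart from genotype, as the knockout arrays lie in row 1 and the wild-type arrays in row 2 of the same slide.

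A β-globin probe outside the 9 genes gave the same picture in the same RNA. Whether it binds other transcripts than the probes named Hbb-b1 and Hbb-b2 was not tested. Hbb-bs, one of the adult β-globin genes of this strain, had a processed signal of 489, 175 and 424 in the Gipr-/- testes and 152, 235 and 215 in the Gipr+/+ testes. By the log2 values its order over the 6 testes was that of Hba-a1, and its highest array exceeded its lowest 3.03-fold. Its difference of 0.74 ± 0.37 (log2, SE) did not pass over all genes (limma adjusted p = 0.67).

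**Figure D2:**
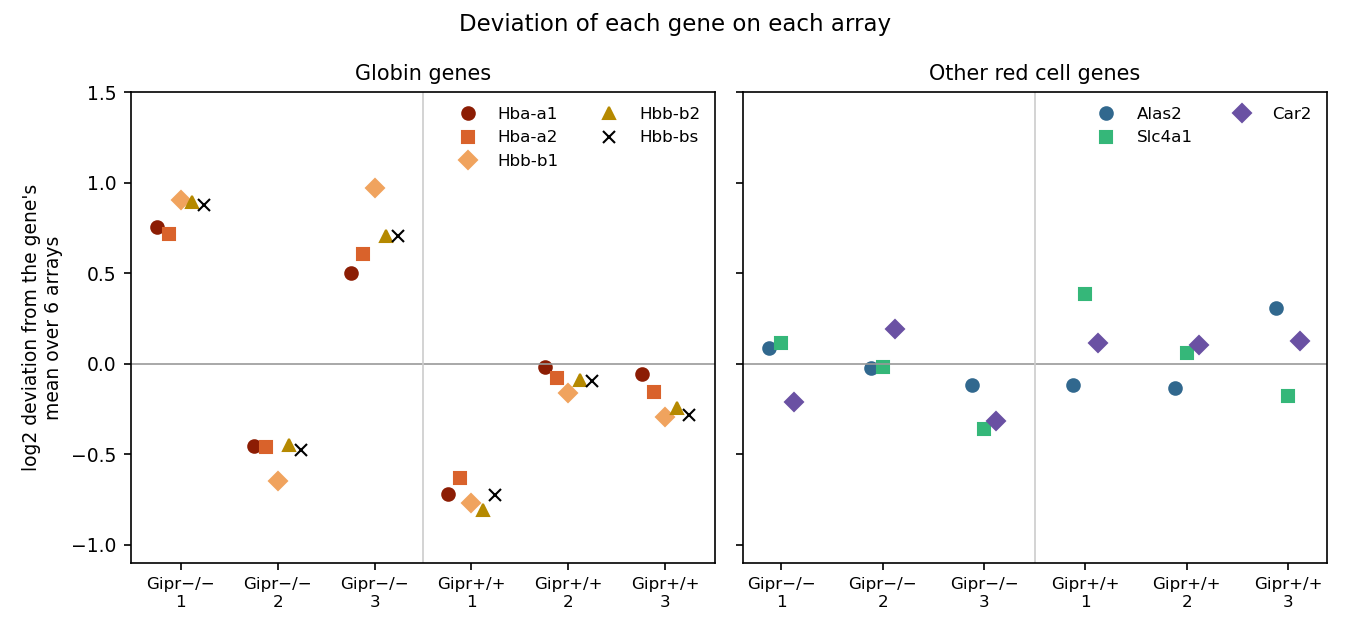
Log2 deviation of a gene from its mean over 6 arrays (vertical axis) on each array (horizontal axis), for 5 globin genes on the left and Alas2, Slc4a1 and Car2 on the right. The globin points of an array cluster, at 0.72 to 0.90 in knockout replicate 1 and -0.81 to -0.63 in wild-type replicate 1, while the red cell genes on the right stay between -0.36 and 0.38 and follow other orders.

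The other red cell genes did not share this order. Alas2 had a processed signal of 2023, 1710 and 1717 in the Gipr-/- testes and 1656, 1638 and 2311 in the Gipr+/+ testes, with wild-type replicate 3 highest. The groups overlapped, and the difference was -0.04 ± 0.13 (log2, SE). Slc4a1 was dim, at 63.7, 52.9 and 44.7 in the Gipr-/- testes and 72.1, 57.7 and 50.9 in the Gipr+/+ testes. Its difference was -0.17 ± 0.18, with wild-type replicate 1 highest, the testis that was lowest for haemoglobin.

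Car2 had a processed signal of 3241, 3909 and 2943 in the Gipr-/- testes and 3831, 3803 and 4009 in the Gipr+/+ testes. Its 2 lowest arrays, knockout replicates 1 and 3, were the 2 highest for haemoglobin. By the log2 values the wild-type arrays lay within 1.02-fold of each other and the knockout arrays within 1.42-fold. The groups overlapped through knockout replicate 2. The difference was -0.23 ± 0.13 (log2, SE).

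Signal of the neutrophil pair was at or near background. S100a8 had a processed signal of 1.74 to 2.49 and was not well above background on any array, so it was not among the tested genes. S100a9 had a processed signal of 12.2, 10.9 and 15.2 in the Gipr-/- testes and 2.77, 9.74 and 2.06 in the Gipr+/+ testes. All 3 Gipr-/- arrays put it well above background, and 0 of the Gipr+/+ arrays did.

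S100a9 was the only 1 of the 9 genes whose groups did not overlap. Its measured means were -5.90 ± 0.22 in the Gipr-/- testes and -7.62 ± 1.21 in the Gipr+/+ testes (log2, SD, n = 3 each). For comparison, each wild-type array was given the higher of its own S100a9 value and the lowest value among its probes well above background. The knockout mean was then 1.65-fold higher, a point value with no error attached and not a lower limit. Wild-type replicate 2 read -6.25, close to the -6.04 of knockout replicate 2, and the scanner software gave the spot an error of up to 101% of its signal. Normexp background correction, under which dim signals lie closer together, gave a log2 difference of 0.15 instead of 1.72. The 1.65-fold thus applies to the processed signal and not to those values.

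Of the 8 genes that could be tested, 0 passed over all genes in limma, against 0.0705% of 26933 genes tested. S100a9 alone had an unadjusted p under 0.05, 1 of the 8 against 7.42% of all genes, and it alone had groups that did not overlap, against 13.0%. S100a9 entered the test through the knockout arrays alone. Since the genes were chosen on this contrast, nothing is read from these counts. By sign, 5 of the 8 were higher in the knockout and 3 lower, while the median difference over all genes was 0.002.

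The haemoglobin genes were among the genes that varied most between testes of a genotype. Their pooled SD within genotype was 0.53 for Hba-a1, 0.51 for Hba-a2, 0.69 for Hbb-b1 and 0.58 for Hbb-b2 on the log2 scale. Over all genes the median was 0.112 and the 95th percentile 0.368, and between 98.1% and 99.2% of genes had a smaller SD than these 4. Alas2 at 0.19 and Car2 at 0.19 exceeded 77.8% and 77.5% of genes, and Slc4a1 at 0.26 exceeded 88.6%. The dim S100a9 stood at 0.87. These genes were chosen with such differences between testes in view, so their ranks only describe them. The 4 haemoglobin genes also moved together and do not count as 4 separate cases.

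Repeated spots show how much of such a spread a single array can give. Probes brighter than 300 that were spotted at least 4 times had a median SD of 0.051 to 0.056 between spots of an array (log2). The pooled SDs of the haemoglobin genes, 0.51 to 0.69, lay above that, although these genes have 1 spot each and RNA extraction, labelling and hybridisation are not measured by repeated spots.

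**Figure D3:**
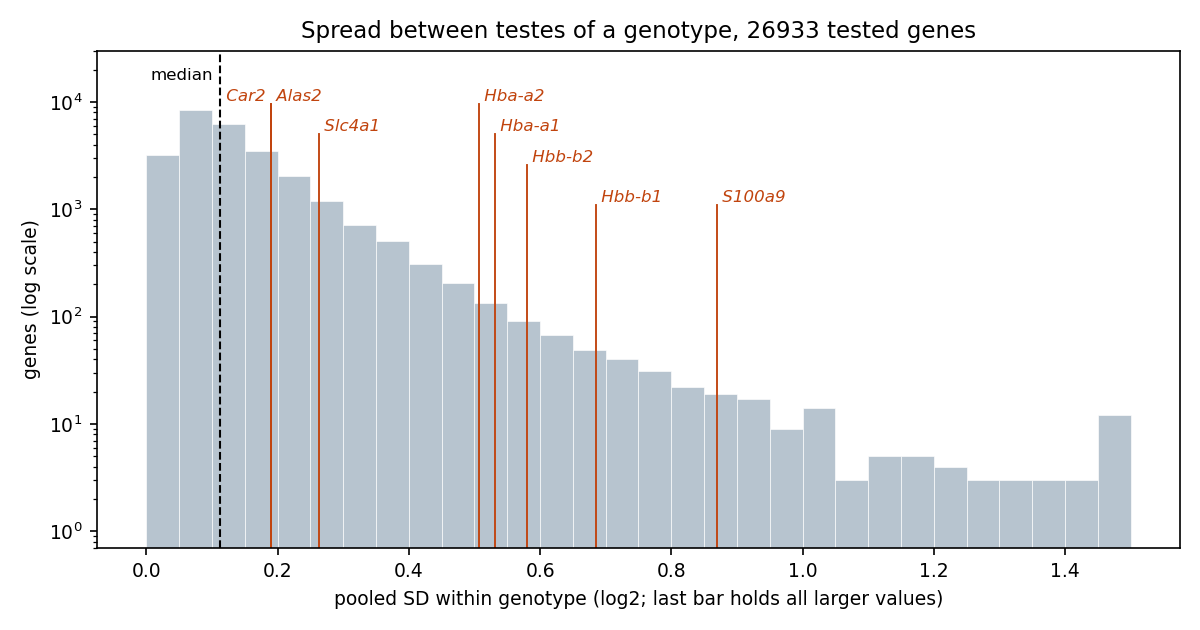
Pooled SD within genotype on the log2 scale (horizontal axis) against the number of genes (vertical axis, log scale), for 26933 tested genes. Vertical lines mark 8 of the described genes, and the dashed line the median of 0.112. The 4 haemoglobin genes sit in the right tail at 0.51 to 0.69, with Alas2, Car2 and Slc4a1 at 0.19 to 0.26.

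Genes whose pattern over the 6 arrays was most like that of haemoglobin were named by the root mean square difference between their deviations and the haemoglobin value, on the log2 scale. The median of this measure over 26929 genes was 0.585, and a gene with no change at all would give 0.575. Hbb-bs was nearest at 0.047, and 3 genes and transcripts in all lay within 0.2. Alas2, Slc4a1 and Car2 gave 0.585, 0.72 and 0.76, no nearer than a flat gene.

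The next named genes were Neb (0.22), which encodes the giant muscle protein nebulin, Cpz (0.24), a secreted carboxypeptidase, and Mfap2 (0.26), a protein of elastic microfibrils. Further genes of the nearest 10 were Gabra2, Lum, Gpc3, Kcnd2 and Olfr262, at 0.27 to 0.29. Neb and Olfr262 were dim and not well above background on wild-type replicate 1, the lowest array for haemoglobin. Both entered the test through the knockout arrays alone, so their nearness rests partly on a background reading. Lum encodes the collagen-binding protein lumican and Gpc3 the surface proteoglycan glypican-3. Differences of the 10 genes ranged from 0.26 to 0.74 and 0 passed over all genes (limma adjusted p = 0.66 to 0.83).

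The embryonic β-type genes Hbb-y and Hbb-bh1 and the cytoglobin gene followed other orders than haemoglobin. Cytoglobin was still highest in knockout replicates 1 and 3, as haemoglobin was. Hbb-y and Hbb-bh1 were dim, with a processed signal of 21.1 to 41.7 and 29.7 to 47.5. Of 10 globin genes on the array besides the 4 described, Hbb-bs among them, Hba-x and Hbq1a were not well above background on any array, and 7 were tested. None passed in limma (0 at an unadjusted p under 0.05), 4 were higher and 3 lower, and their median was 0.07. Hbb-y and Hbb-bh1 read -0.38 ± 0.20 and -0.03 ± 0.17 (log2 difference, SE), and cytoglobin, Cygb, a globin of many tissues, read 0.07 ± 0.09.

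The median erythroid gene differed little between the same testes. Of 34 genes of the red cell membrane and of erythroid cells, 28 were tested and 0 passed in limma, with 17 higher, 11 lower and a median of 0.03. The median deviation of the list was -0.03, 0.00 and 0.04 in the Gipr-/- testes and 0.01, 0.03 and 0.02 in the Gipr+/+ testes, where haemoglobin ranged from -0.73 to 0.82. Rhag and Trim10, genes of red cells and their precursors, were not well above background on any array, and Ahsp, the α-haemoglobin stabilising protein, on 1 array, knockout replicate 1, with a processed signal of 13.6.

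Other genes of this list were well above background on all 6 arrays. Gata1, a transcription factor that Sertoli cells express as well, had a processed signal of 2498, 2224 and 3012 in the Gipr-/- testes and 2445, 2307 and 2051 in the Gipr+/+ testes. The member of lowest p was Tal1, a transcription factor of blood formation, at -0.44 ± 0.12 (limma adjusted p = 0.63). It was the only 1 of the 28 with an unadjusted p under 0.05, against 7.42% of all genes.

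Genes of haem synthesis, a pathway not limited to erythroid cells, also gave 0 calls. All 12 genes besides Alas2 were tested, 0 passed and 0 had an unadjusted p under 0.05 (limma), 6 were higher and 6 lower, and the median was 0.00. The mitochondrial glycine carrier Slc25a38 read -0.10 ± 0.07 and Ppox, the enzyme before ferrochelatase, 0.13 ± 0.10 (log2, SE). Among 13 tested genes of haemoglobin and haem clearance 0 passed, 4 were higher and 9 lower, with a median of -0.03. Of these, 1 had an unadjusted p under 0.05 in limma, against 7.42% of all genes. The member of lowest p was Slc48a1, a haem transporter of lysosomes, at -0.28 ± 0.09 (adjusted p = 0.66).

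The families of the remaining red cell genes also gave 0 calls. Among 12 other carbonic anhydrase genes 4 were higher and 8 lower (median -0.03). An unadjusted p under 0.05 in limma was reached by 1 in each direction, against 7.42% of all genes. The lower one was Car15 at -0.20 ± 0.07 (log2, SE; adjusted p = 0.66). The higher one was Car13, which was well above background on 3 Gipr-/- arrays and 0 Gipr+/+ arrays and so entered the test through the knockout alone. Its measured difference was 0.64 ± 0.23 (log2, SE; limma adjusted p = 0.66), against wild-type readings near background. With those readings raised in the same way as for S100a9, its knockout mean was 1.42-fold higher, again a point value and not a lower limit. The list of 9 other tested genes named Slc4 holds transporters of bicarbonate and other ions and also Slc4a1ap, which encodes an adaptor protein and no transporter. Of these, 7 were higher and 2 lower (median 0.08), with 0 at an unadjusted p under 0.05. Slc4a2, the broadly expressed relative of Slc4a1, read 0.02 ± 0.06.

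White cells and platelets were measured in the same RNA by lists of their own. Of 31 neutrophil genes on the array besides the S100 pair, 20 were tested and 0 passed, with a median of -0.03. An unadjusted p under 0.05 in limma was reached by 4, 2 in each direction, against 7.42% of all genes. Of the granule genes, Ngp, Ltf, Mmp8 and Mmp9 were not well above background on any array. Camp, the cathelicidin of neutrophil granules, read 0.05 ± 0.10, and Mpo, the myeloperoxidase, 0.13 ± 0.08.

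Pglyrp1 and Padi4 had higher values on each knockout array than on any wild-type array and an unadjusted p under 0.05, criteria that 13.0% and 7.42% of all genes met singly. Pglyrp1, a peptidoglycan-binding protein, had a processed signal of 21.3, 17.7 and 17.7 in the Gipr-/- testes and 11.8, 14.4 and 10.6 in the Gipr+/+ testes. It was well above background on 3 of the Gipr-/- arrays and 1 of the Gipr+/+ arrays, so it entered the test through the knockout alone. Its difference, measured largely against background, was 0.62 ± 0.14 (log2, SE; limma adjusted p = 0.52). Padi4, which modifies histones in neutrophils, read 0.24 ± 0.07 (adjusted p = 0.66). In the other direction, Lcn2, a secreted iron-siderophore-binding protein also made by epithelia, read -1.14 ± 0.44 and the granule protease Prtn3 -0.28 ± 0.11 (both adjusted p = 0.66).

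Among 13 other S100 genes tested, 7 were higher and 6 lower, with a median of 0.01 and 0 at an unadjusted p under 0.05 in limma. S100a4, found in fibroblasts and leukocytes, read -0.39 ± 0.21, and S100a6 0.05 ± 0.08.

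Platelet, lymphocyte and monocyte genes gave 0 calls as well. None of the 13 platelet, 17 lymphocyte and 12 monocyte genes tested passed in limma, with medians of -0.07, -0.07 and -0.20. At an unadjusted p under 0.05 there were 1 platelet, 1 lymphocyte and 3 monocyte genes, against 7.42% of all genes. The platelet gene was Gp5 (-0.18 ± 0.07) and the lymphocyte gene the B cell gene Ms4a1 (0.34 ± 0.11). Among the 3 monocyte genes were Cybb (-0.40 ± 0.16) and Lyz1 (-0.37 ± 0.15). Cybb was dim, and well above background on 2 of the Gipr-/- arrays and 3 of the Gipr+/+ arrays. It thus entered the test through the wild type alone. Ppbp, a chemokine of platelet granules, and the platelet receptor gene Gp9 were not well above background on any array.

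Knockout replicate 3, which was high for haemoglobin, was low for several of these lists. Its median deviation was -0.28 for platelet genes, -0.25 for monocyte genes and -0.30 for testicular macrophage genes, against -0.05 to 0.13 on the other 5 arrays. Knockout replicate 1, also high for haemoglobin, stood at 0.08, -0.01 and 0.01 for the same lists. Endothelial genes, which read the vessels, had deviations of -0.02, 0.01 and -0.13 in the Gipr-/- testes and 0.06, 0.05 and 0.04 in the Gipr+/+ testes. Of 15 tested, 0 passed, with a median of -0.08, and of 15 macrophage genes 0 passed, with a median of -0.12. The endothelial genes Plvap and Emcn, both lower, had an unadjusted p under 0.05 in limma, 2 of 15 against 7.42% of all genes.

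Genes of testis cells differed between the same arrays. The 9 tested Leydig cell genes had median deviations of -0.19, 0.10 and -0.79 in the Gipr-/- testes and 0.12, 0.38 and 0.12 in the Gipr+/+ testes. Knockout replicates 1 and 3 were thus the lowest 2 for this list and the highest 2 for haemoglobin. Ptgds, a prostaglandin D synthase, had a processed signal of 12439.6, 46406 and 9917 in the Gipr-/- testes and 55681, 39386 and 67335 in the Gipr+/+ testes. Spermatid genes stood at -0.08, 0.09 and -0.16 in the Gipr-/- testes and 0.07, 0.04 and -0.01 in the Gipr+/+ testes. The part of these differences in the haemoglobin values was not tested. None of the 9 Leydig, 10 spermatid, 10 spermatocyte and 10 Sertoli cell genes tested passed in limma, with medians of -0.44, -0.11, 0.01 and 0.06. In that order 2, 1, 0 and 3 had an unadjusted p under 0.05, against 7.42% of all genes. Of the 3 Sertoli cell genes, 1 was well above background on the knockout arrays alone and so entered the test through them. As a check of the tissue label, the protamine gene Prm1 of spermatids read 8.76 to 8.93 on the log2 scale, well above background on all 6 arrays.

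**Figure D4:**
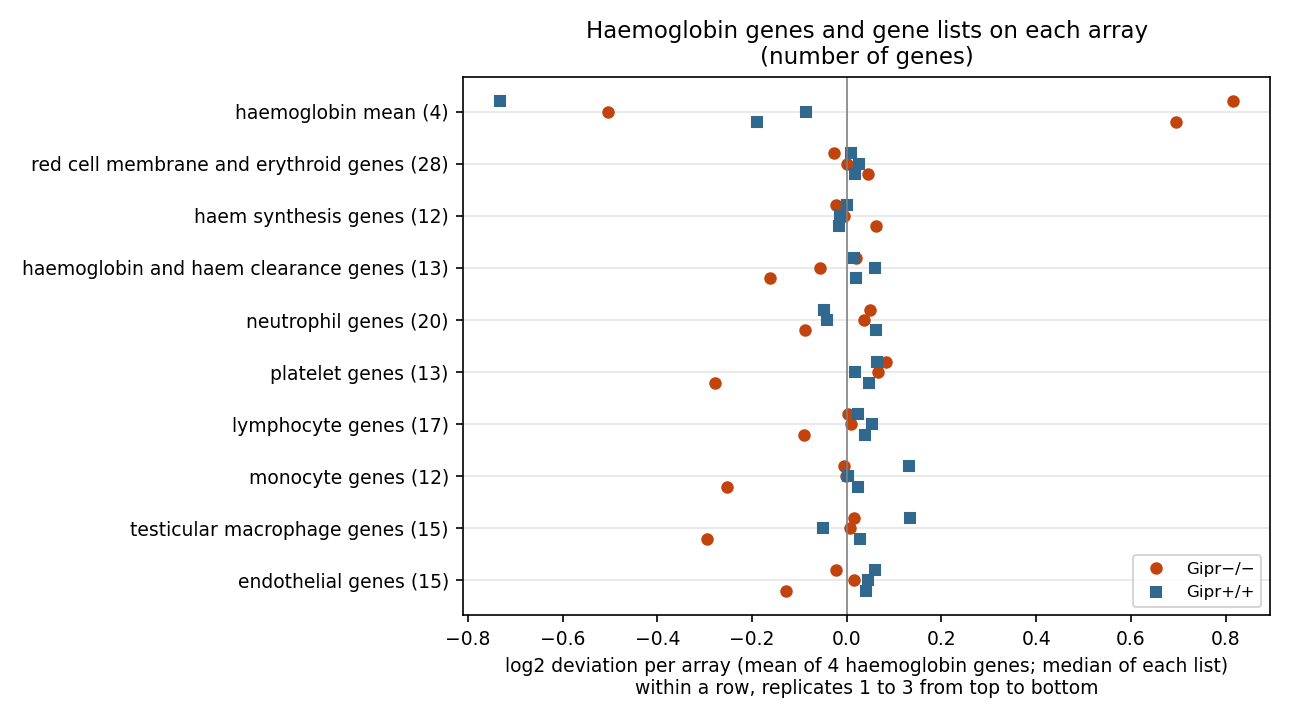
Log2 deviation per array (horizontal axis) of the mean of 4 haemoglobin genes and of the median gene of 9 lists (rows, with the number of genes), for Gipr-/- (circles) and Gipr+/+ (squares) testes. Haemoglobin runs from -0.73 to 0.82, the erythroid list from -0.03 to 0.04, and knockout replicate 3 lies at -0.30 to -0.25 for platelets, monocytes and macrophages.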

How the data were processed

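Whole-testis RNA was read on 1-colour arrays of Agilent design 028005. Per the labels' protocols, 100 ng of RNA was labelled with Cy3, and Feature Extraction 10.7.3.1 is named in the submitters' processing notes. The deposited values used are its processed signal, a background-corrected intensity on a linear scale. The authors also deposited a value list, which equals that signal times 1 factor per array (median 200) and served as an alternative. Between 70.6% and 76.0% of non-control spots were well above background and 0 were saturated. The number of arrays, 3 per genotype, limits the precision.

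Outlier spots were dropped, log2 signals were averaged per probe, and each array was set relative to its own 75th percentile. Probes well above background on all 3 arrays of a group were tested, 38884 in all, and the brightest tested probe stood for a gene, giving 26933 genes and unnamed transcripts. The genotypes were compared by limma 3.58.1 (R 4.3.3; lmFit, eBayes, two-sided, no covariates), with Benjamini-Hochberg adjustment over all genes and a threshold of 0.05. The scripts were tested on simulated data. An exact permutation test of 3 arrays against 3 cannot go below p = 0.1. Names came from the files and from RefSeq's GRCm38.p6 table, by accession for 26762 probes, current symbol for 3819 and older symbol for 639, while 24461 kept the files' name.

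The genes described and the lists were chosen with earlier results of these data known. Named were the 9 genes, up to 4 genes of lowest p per list and the 10 genes nearest in pattern, with markers of each cell type; Cygb, Hbb-y, Hbb-bh1, Slc4a2 and S100a6 were added after their values were seen. A planned mean of S100a8 and S100a9, and the genes nearest to it, were left out because S100a8 was not above background. Same-numbered arrays of both genotypes did not deviate together (r = 0.05, -0.05 and -0.03 across genes), so they were not treated as pairs. Proteins and exon boundaries were not used here. A few genes that these rules would name are not reported here.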

Additional observations from a re-analysis of the deposited data

How the results depend on the processing

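The haemoglobin difference kept its sign in all 12 alternatives. It was 0.656 with normexp background correction, 0.684 with quantile normalization, and 0.43 to 1.09 when 1 array was left out. Other filters and the other probe rule could change neither it nor the ranges below. Each of the 4 genes has 1 probe, well above background on all 6 arrays. The deposited value list is the same signal times 1 factor per array, so it is no separate check either. The range within the knockout was 0.12 to 1.32 with 1 array left out and that within the wild type 0.10 to 0.65, and the other 6 alternatives moved either by less than 0.04. Alas2 changed sign in 2 of 12 alternatives, with values from -0.11 to 0.11; Slc4a1 and Car2 stayed below 0 and each globin gene above 0 in all 12.

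The number of genes called over the whole array, 19 in limma, was 29 with normexp, 7 without a filter on dim probes, 30 with array weights, 34 with trend and robust moderation, and 5 to 13 with 1 array left out. With the replicate block it was 5; the labels do not say that the numbers mark pairs, and no gene of the lists passed with it. Calls in the gene lists were 0 under all 16 settings. The planned mean of S100a8 and S100a9 was not run under any setting. Signal over background limits S100a8, above background on 0 arrays, and S100a9, on 3, and with 3 testes per genotype the spread of haemoglobin rests on few animals. The cause of each shift was not tested.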

Other observations

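Haptoglobin, the plasma protein that binds free haemoglobin, differed between single testes more than the haemoglobin genes did, in another order. The processed signal of Hp was 1103, 86.2 and 78.8 in the knockout and 95.2, 885 and 80.6 in the wild type. Knockout replicate 1 and wild-type replicate 2 stood apart from the other 4 testes. By the log2 values the highest array exceeded the lowest 13.7-fold. Retn, which encodes the fat cell hormone resistin, was highest on the same 2 arrays, with a processed signal of 2071, 946 and 876 in the knockout and 858, 1574 and 948 in the wild type. The difference between genotypes was 0.04 ± 1.32 for Hp and 0.13 ± 0.37 for Retn (log2, SE; limma adjusted p = 0.99 and 0.93). Both genes were named after their values were seen.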
